A study of Mus musculus with 8 samples.

Results

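Reactive astrocyte genes were followed in the prefrontal cortex (C57BL6/J mice) by RNA sequencing. The group consists of 10 genes induced when astrocytes become reactive, taken by symbol from the count tables: Gfap, Vim, Serpina3n, Lcn2, Cd44, Osmr, Steap4, S1pr3, Cp and Timp1. All 10 were found among 23393 gene symbols, and all 10 were among the 17415 genes with enough reads to be tested. The mice were 6 to 8 weeks old according to the series' design text, and all were injected with an AAV9 vector, an adeno-associated virus that enters brain cells. The 8 libraries formed 4 groups of 2: shAdnp (titled as Adnp knockdown by a short hairpin RNA), the GFP controls of the Adnp set, shPogz (titled as Pogz knockdown) and the separate GFP controls of the Pogz set. Every control thus carried a virus too, and no uninjected cortex was analysed here. Neither the promoter driving the hairpins nor the cells that took up the virus is stated in the labels. The treatment label of both hairpin groups names ASH1L, not Adnp or Pogz, so the groups follow the titles. The protocol speaks of biological duplicates and the design text of 3 knockdown and 2 control mice. The series title asks whether ADNP and POGZ, chromatin proteins tied to neurodevelopmental disorders, act through a convergent mechanism.

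Astrocytes are the glial cells that take up glutamate and potassium and contact blood vessels and synapses. After injury, infection or inflammation they become reactive: their intermediate filaments thicken, and they release protease inhibitors, acute-phase proteins and matrix regulators. Cytokines of the interleukin 6 family, acting through the receptor subunit gp130 and the transcription factor STAT3, and microglial signals such as interleukin 1 alpha, tumour necrosis factor and C1q are known inducers of this state. Several of the 10 genes are not exclusive to astrocytes: vimentin is also made by vascular and microglial cells, and CD44 and TIMP1 by leukocytes and fibroblasts.

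Total counts in named genes ran from 27501722 to 69002749 per library. In shAdnp replicate 1, 7.62% of reads fell on Rn45s, the ribosomal RNA precursor, a share of 0.134% to 0.740% elsewhere. On a multidimensional scaling plot the first axis, with 52.3% of the spread, had the Adnp-set GFP replicate 1 at one end (-2.47) and shPogz replicate 2 at the other (2.15). The transcripts named in the titles were not called lower: Adnp differed by -0.27 (log2, SE 0.19) between shAdnp and its controls, Pogz by -0.32 (SE 0.16) between shPogz and its controls, and Ash1l by -0.10 (SE 0.14) and 0.11 (SE 0.14). In both comparisons edgeR called 0% of all genes, so the lack of a call does not settle the knockdown. Both shPogz libraries lay below both controls for Pogz (49.0 and 37.3 CPM, against 54.4 and 53.1 CPM). For Adnp the shAdnp libraries overlapped their controls (87.2 and 118 CPM, against 137 and 111 CPM). Group names below are those of the titles. The tissue carried astrocyte RNA in quantity: the 14 astrocyte markers examined (glutamate transporters Slc1a2 and Slc1a3, Aqp4, Aldh1l1, Gja1 and others) summed to between 5713 and 8451 CPM, and none was at 0. CPM are counts rescaled to a common library size and adjusted by the trimmed mean of M-values (TMM).

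The genes differed widely in abundance. Compared per kilobase of annotated exon, Gfap, which encodes an intermediate filament protein of astrocytes, came first in the GFP controls with a median of 60.3 CPM per kilobase (range 22.2 to 83.1 over 4 libraries). It was followed by Serpina3n (median 14.0, range 8.86 to 21.8) and Vim (12.2, range 6.15 to 19.6), whose ranges overlapped. Cp (3.27), S1pr3 (3.23) and Timp1 (1.94) came next, with overlapping ranges. Cd44 (1.30) and Osmr (1.05) also overlapped. Steap4 (0.283, range 0.228 to 0.338) and Lcn2 (0.229, range 0.112 to 0.769) were lowest and overlapped each other. By the medians of the 4 hairpin libraries the order of the 10 genes was the same.

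**Figure D1:**
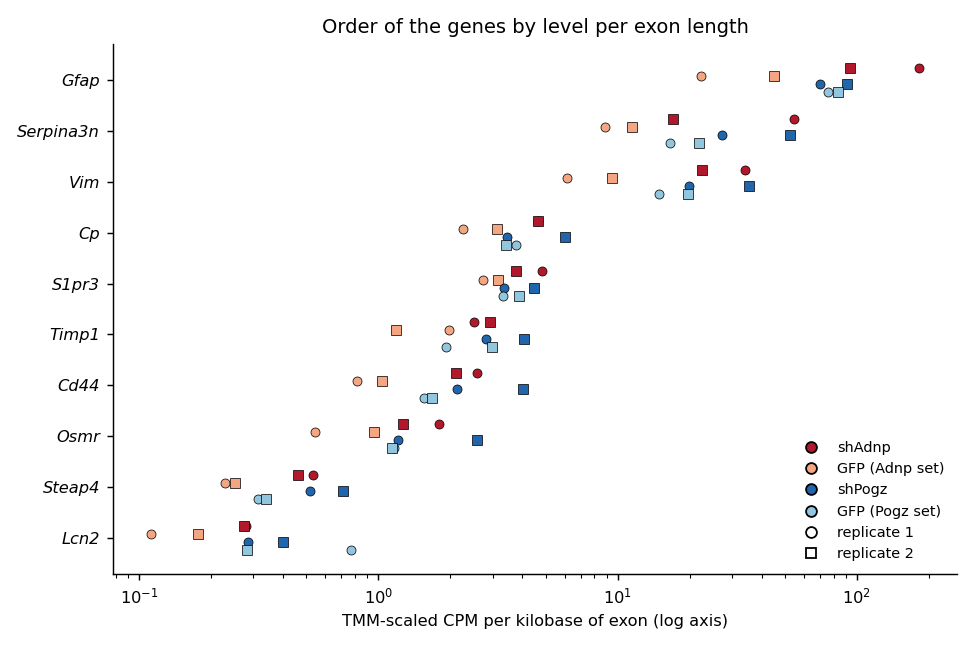
Level of each gene in every library as TMM-scaled CPM per kilobase of annotated exon (log axis), genes ordered by the median of the 4 GFP libraries, groups by colour and replicates by marker shape. Gfap lies between 22.2 and 182 CPM per kilobase, and Lcn2, the lowest, between 0.112 and 0.769.

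In the comparison of shAdnp with its own GFP controls, all 10 genes were higher, and in each of them both shAdnp libraries lay above both controls. Such a separation upward was found for 20.4% of all genes tested. The median log2 fold change of the 10 was 1.04 (range 0.54 to 2.03), beside -0.01 over all 17415 genes, of which 47.7% were above 0. In edgeR's quasi-likelihood test 0 of the 10 passed an adjusted p of 0.05, as did 0 of all genes (0%). At an unadjusted p under 0.05, 8 of 10 were higher, beside 6.67% of all genes. DESeq2 called 4 of them higher (Gfap, Vim, Cd44 and Cp), beside 2.39% of all genes, and limma-voom called 0. The count of 8 was 4 without shAdnp replicate 1 and 4 without GFP replicate 1. In whole tissue, more cells of a type and more RNA per cell cannot be told apart, and with 2 libraries per group the test borrows its estimate of spread from all groups and genes.

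The filament genes had the largest differences of the 10. Gfap (chromosome 11, 102887336 to 102900912, minus strand, mm10) stood at 767 and 393 CPM in the shAdnp libraries, against 93.7 and 191 CPM in the GFP controls (log2 fold change 2.03, SE 0.46; edgeR adjusted p = 0.334). The lower shAdnp library was above the higher control by a wide margin, but each pair was itself spread. Vim (chromosome 2, 13573927 to 13582826, plus strand), which encodes the filament protein vimentin that reactive astrocytes add to GFAP, stood at 161 and 107 CPM in shAdnp, against 29.2 and 45.0 CPM in the controls (1.85, SE 0.38; edgeR adjusted p = 0.303). For both filament genes shAdnp replicate 1 was the higher of its pair and GFP replicate 1 the lower.

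The secreted proteins were less even. Serpina3n (chromosome 12, 104406729 to 104414329), an inhibitor of serine proteases such as cathepsin G, was at 113 and 35.0 CPM in shAdnp, against 18.3 and 23.7 CPM in the controls (1.82, SE 0.66; edgeR adjusted p = 0.564). Its difference came mostly from shAdnp replicate 1, and without that library it was 0.75. Serpina3n is 1 of 11 Serpina3 genes in the tables, and reads of near-identical copies could be split between them. Cp (chromosome 3, 19957054 to 20009145), the copper-carrying ferroxidase ceruloplasmin that lets cells export iron, was at 44.5 and 44.4 CPM in shAdnp, against 21.7 and 30.1 CPM in the controls (0.78, SE 0.26; edgeR adjusted p = 0.425). Cp overlaps Hps3 on the opposite strand.

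Lcn2 and Timp1 were counted on few reads. Lcn2 (chromosome 2, 32384633 to 32388252), the siderophore- and iron-binding protein lipocalin 2, had 42 and 40 reads in shAdnp and 18 and 29 reads in the controls. This amounts to 0.730 and 0.720 CPM in shAdnp, against 0.294 and 0.462 CPM in the controls (0.93, SE 0.55; edgeR adjusted p = 0.725), and the interval of the difference ran from -0.31 to 2.18. Timp1 (chromosome X, 20870166 to 20874735), an inhibitor of matrix metalloproteinases, was at 2.23 and 2.59 CPM in shAdnp, against 1.75 and 1.05 CPM in the controls (0.78, SE 0.36; edgeR adjusted p = 0.610). Timp1 lies inside Syn1, a neuronal synapsin gene on the opposite strand with 3622 to 12021 reads per library. Because the strand setting of the counting is not given, a share of Syn1 reads in the Timp1 values cannot be told apart.

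The surface proteins followed. Cd44 (chromosome 2, 102811141 to 102901665), the receptor for hyaluronan and osteopontin, had the smallest p of the 10: 17.5 and 14.3 CPM in shAdnp, against 5.49 and 7.02 CPM in the controls (1.35, SE 0.28; edgeR adjusted p = 0.295). Osmr (chromosome 15, 6813577 to 6874969), the receptor subunit for oncostatin M that pairs with gp130, was at 21.8 and 15.4 CPM in shAdnp, against 6.56 and 11.6 CPM in the controls (1.03, SE 0.42; edgeR adjusted p = 0.584). The Osmr control values differed from each other by more than the nearest shAdnp and control values did. S1pr3 (chromosome 13, 51408639 to 51422797), a G protein-coupled receptor for sphingosine 1-phosphate, had the smallest difference, at 21.6 and 16.7 CPM in shAdnp, against 12.2 and 14.1 CPM in the controls (0.54, SE 0.19; edgeR adjusted p = 0.412). Steap4 (chromosome 5, 7960457 to 7982213), a membrane metalloreductase that reduces iron and copper, was at 1.69 and 1.46 CPM in shAdnp, against 0.719 and 0.796 CPM in the controls (1.05, SE 0.34; edgeR adjusted p = 0.390).

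**Figure D2:**
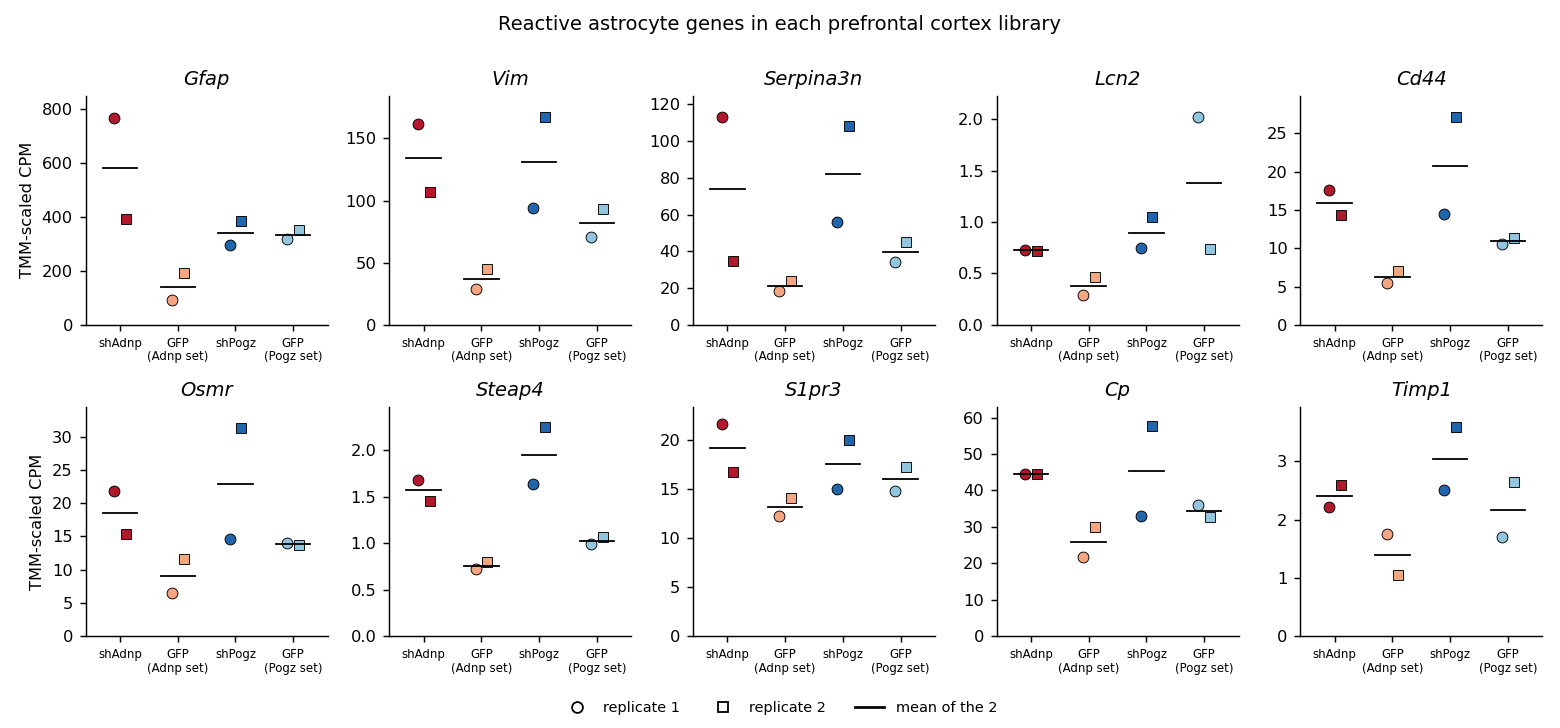
TMM-scaled CPM of the 10 genes in each library (linear axes from 0), with replicates as points and the mean of each pair as a line. In all 10 panels both shAdnp points lie above both points of their GFP controls, while in 5 panels (Vim, Serpina3n, Cd44, Osmr and Steap4) both shPogz points lie above theirs.

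Several of these genes are known targets of STAT3 and of the inflammatory factors NF-kB and AP-1, so the promoters were searched for those motifs. RefSeq promoter windows on GRCm38.p6 (the assembly of mm10), from 250 bases before to 50 after an annotated start, were found for all 10 genes, with 11 windows in all since Cp has 2. Both strands were searched. The STAT palindrome TTCNNNGAA was found in the windows of 2 genes, Gfap and Steap4, beside 8.3% of all 32851 windows. For AP-1 the loose form TGANTCA was searched, which allows any base at N. It was found for 2 genes (Osmr and Cp), in both as TGATTCA, beside 7.81% of windows. The NF-kB motif was found for 2 genes (Vim and Steap4), beside 4.51%. A match describes these letters only. The windows with the STAT palindrome are printed because they belong to the most abundant of the genes and to one of the least abundant; capitals mark the STAT match and, in Steap4, also 2 NF-kB matches. Positions count from the annotated start, and the STAT match begins at -2 in Gfap and at -116 in Steap4.
Gfap promoter, chr11:102897151-102897450, minus strand: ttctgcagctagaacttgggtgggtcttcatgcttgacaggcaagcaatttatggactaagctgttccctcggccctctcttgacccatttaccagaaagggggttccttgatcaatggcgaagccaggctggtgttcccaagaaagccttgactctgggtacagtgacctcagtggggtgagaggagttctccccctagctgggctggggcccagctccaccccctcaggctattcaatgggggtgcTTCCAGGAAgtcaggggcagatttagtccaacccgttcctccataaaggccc
Steap4 promoter, chr5:7960222-7960521, plus strand: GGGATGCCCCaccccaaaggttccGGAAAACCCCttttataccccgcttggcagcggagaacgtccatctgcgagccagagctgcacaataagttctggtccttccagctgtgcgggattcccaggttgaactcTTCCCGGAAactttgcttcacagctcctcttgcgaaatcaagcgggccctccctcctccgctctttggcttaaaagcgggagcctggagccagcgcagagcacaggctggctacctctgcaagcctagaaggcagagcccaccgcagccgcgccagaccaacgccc

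In the comparison of shPogz with its own GFP controls, 9 of the 10 genes were higher, beside 46.4% of all genes, and 1, Lcn2, was lower. Both shPogz libraries lay above both controls for 5 genes (Vim, Serpina3n, Cd44, Osmr and Steap4), beside 19% of all genes tested. These 5 were the genes with hairpin libraries above their own controls in both sets, a pattern found in 7.12% of all genes. The median log2 fold change was 0.57 (range -0.58 to 1.05), beside -0.02 over all genes. In edgeR 0 of the 10 passed an adjusted p of 0.05, as did 0 of all genes (0%), while 2 (Cd44 and Steap4) had an unadjusted p under 0.05 and were higher, beside 4.05% of all genes. DESeq2 and limma-voom each called 0 of the 10. Without shPogz replicate 2 the median was 0.15 and 0 had an unadjusted p under 0.05, as was also so without GFP replicate 1. Without shPogz replicate 1 there were 5 of these, and Cd44 passed the adjusted edgeR test as higher (1 of 10), beside 0.505% of all genes.

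Cd44 stood at 14.4 and 27.1 CPM in shPogz, against 10.5 and 11.3 CPM in the GFP controls (0.92, SE 0.28; edgeR adjusted p = 0.667). Steap4 was at 1.64 and 2.25 CPM in shPogz, against 0.990 and 1.07 CPM in the controls (0.91, SE 0.34; edgeR adjusted p = 0.667). For both genes the control pair was tight and the shPogz pair spread, replicate 2 being the higher. Serpina3n had the largest fold change of the set, at 56.1 and 108 CPM in shPogz, against 34.0 and 45.0 CPM in the controls (1.05, SE 0.65; edgeR adjusted p = 0.695). Osmr was at 14.6 and 31.3 CPM in shPogz, against 14.0 and 13.8 CPM in the controls (0.72, SE 0.42; edgeR adjusted p = 0.680). In Osmr, shPogz replicate 1 was barely above the controls, and without replicate 2 the difference was 0.09.

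The filament genes parted in this set. Vim was at 94.3 and 167 CPM in shPogz, against 70.9 and 93.0 CPM in the controls (0.67, SE 0.37; edgeR adjusted p = 0.670), so that shPogz replicate 1 nearly met the higher control. Gfap was at 296 and 383 CPM in shPogz, against 318 and 350 CPM in the controls, 1 shPogz library lying below both controls and 1 above. The fitted difference was 0.02 (log2, SE 0.44; edgeR adjusted p = 0.990), with a wide interval from -1.09 to 1.13.

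The remaining genes overlapped between shPogz and its controls. Cp was at 33.0 and 57.6 CPM in shPogz, against 36.0 and 32.6 CPM in the controls (0.40, SE 0.26). S1pr3 was at 14.9 and 20.0 CPM in shPogz, against 14.7 and 17.2 CPM in the controls (0.12, SE 0.19). Timp1 was at 2.50 and 3.59 CPM in shPogz, against 1.70 and 2.64 CPM in the controls (0.47, SE 0.36). In all of these shPogz replicate 2 was the highest of the set. Lcn2 ran the other way, with 32 and 40 reads in shPogz and 57 and 52 reads in the controls, which is 0.749 and 1.05 CPM against 2.02 and 0.739 CPM (-0.58, SE 0.54; edgeR adjusted p = 0.759). The GFP replicate 1 of this set, the shallowest library, held the highest Lcn2 level of all 8, and without it the difference was 0.30.

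**Figure D3:**
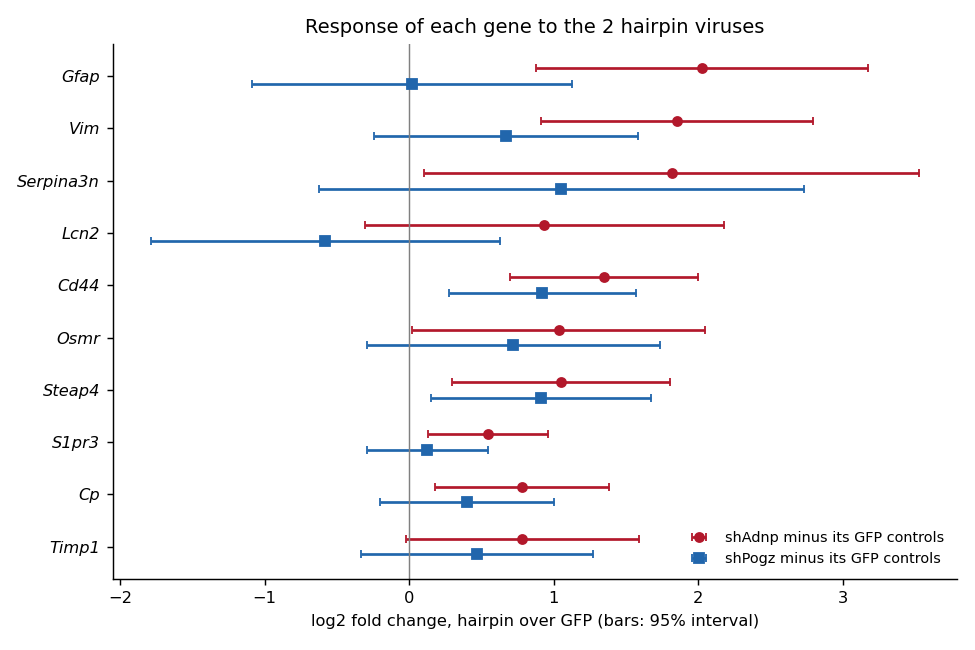
Log2 fold change of each gene in shAdnp and in shPogz over their own GFP controls, with 95% intervals from the edgeR model. All 10 shAdnp points lie above 0 and 8 of their intervals exclude it; 9 shPogz points lie above 0 and the intervals of Cd44 and Steap4 exclude it.

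The average hairpin effect, fitted over both sets with a term for set, is a mean of the responses in both sets. It can be large where a single hairpin group differs: Gfap differed by 2.03 in shAdnp and by 0.02 in shPogz. The average was above 0 for all 10 genes, beside 44.7% of all genes. Its median was 0.93 (range 0.16 to 1.43), beside -0.02 over all genes. The largest averages were those of Serpina3n (1.43, SE 0.45), Vim (1.26, SE 0.36), Cd44 (1.14, SE 0.20) and Gfap (1.03, SE 0.55), followed by Steap4 (0.98, SE 0.23). In edgeR 0 of 10 passed an adjusted p of 0.05, beside 0% of all genes, and the smallest adjusted p was that of Cd44 (0.142). At an unadjusted p under 0.05, 8 genes were higher (all but Gfap and Lcn2), beside 8.84% of all genes. DESeq2 called 6 of them higher (Vim, Serpina3n, Cd44, Osmr, Steap4 and Cp), beside 4% of all genes, and limma-voom called 0. All 4 hairpin libraries lay above all 4 GFP libraries for 4 genes, Vim, Cd44, Osmr and Steap4, beside 4.01% of all genes. Without shPogz replicate 1, 4 genes passed the adjusted edgeR test as higher (Vim, Cd44, Osmr and Cp), beside 2.78% of all genes, and without shPogz replicate 2 only 5 had an unadjusted p under 0.05.

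The responses of the 2 hairpin groups were then set against each other in a test of the difference itself (shPogz response minus shAdnp response). All 10 differences were below 0, while 46.9% of all genes were above 0, with a median of -0.42 (range -2.01 to -0.14) beside -0.02 over all genes. Gfap had the largest, -2.01 (SE 0.63; interval -3.59 to -0.43; edgeR adjusted p = 0.978), and it alone of the 10 had an unadjusted p under 0.05, beside 2.41% of all genes in that direction. In edgeR 0 of 10 passed an adjusted p of 0.05 (0% of all genes), and DESeq2 and limma-voom also called 0. For Lcn2 the difference was -1.51 (SE 0.77) and for Vim -1.18 (SE 0.53). For Steap4 it was -0.14 with an interval from -1.20 to 0.92, and for Cd44 -0.43 with an interval from -1.33 to 0.48. Without shPogz replicate 1 the count at an unadjusted p under 0.05 was 0, without shPogz replicate 2 it was 4, and without Adnp-set GFP replicate 2 it was 2. Leaving out shPogz replicate 1 gave a median of -0.15, and leaving out shPogz replicate 2 one of -0.94. The sign turned for Serpina3n without shAdnp replicate 1, for Osmr without Adnp-set GFP replicate 1 or shPogz replicate 1, for Steap4 without shPogz replicate 1, and for Timp1 without replicate 2 of either control pair. The intervals of Steap4 and Cd44 are too wide to show that their responses were alike.

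The starting levels of the control pairs differed as well. For 9 of the 10 genes, all but Timp1, both GFP controls of the Pogz set lay above both GFP controls of the Adnp set, beside 21.2% of all genes. The median log2 difference (Pogz-set over Adnp-set controls) was 0.73 (range 0.29 to 1.82), beside 0.01 over all genes, with 10 of 10 above 0 beside 51.8% of all genes. Gfap averaged 334 ± 22.9 CPM in the Pogz-set controls and 142 ± 68.5 CPM in the Adnp-set controls (SD, n = 2 each), a difference of 1.23 (SE 0.45; edgeR adjusted p = 0.674). Vim averaged 81.9 ± 15.6 CPM in the Pogz-set controls and 37.1 ± 11.2 CPM in the Adnp-set controls (SD, n = 2 each; 1.15, SE 0.38; edgeR adjusted p = 0.672). By edgeR 0 of the 10 passed an adjusted p of 0.05, beside 0.00574% of all genes, DESeq2 and limma-voom called 0, and 4 (Gfap, Vim, Lcn2 and Cd44) were higher at an unadjusted p under 0.05, beside 4.65% of all genes. That count was 1 without Adnp-set GFP replicate 1 and 1 without either Pogz-set control. The controls enter both the responses and this difference, so the values are given side by side only, and the set, its batch and its control virus cannot be told apart.

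Across all 8 libraries, Adnp-set GFP replicate 1 was the lowest for 9 of the 10 genes, beside 18% of all genes tested. The highest was shPogz replicate 2 for 6 genes (Vim, Cd44, Osmr, Steap4, Cp and Timp1), beside 22.7% of all genes, and shAdnp replicate 1 for 3 genes (Gfap, Serpina3n and S1pr3), beside 9.68%. Between the hairpin groups, both shPogz libraries lay below both shAdnp libraries for Gfap alone and above them for Lcn2 alone, beside 18.9% and 16.9% of all genes. With the members standardised and averaged over 8 libraries, the tested genes outside the group with the closest profile were Tnfrsf1a, which encodes a receptor of tumour necrosis factor (Pearson r = 0.999), Csf3r, a receptor for granulocyte colony-stimulating factor (0.994), Fcgr2b, an inhibitory Fc gamma receptor (0.993), Tlr1, a Toll-like receptor (0.993), and Emp1, a membrane protein also listed among genes of reactive astrocytes (0.991). These libraries share the same group structure, and the correlations describe it. Among the members themselves the 45 pairwise correlations ran from 0.31 (Lcn2 with Timp1) to 0.98 (Cd44 with Steap4), with a median of 0.83. Members also correlated with markers of other cells. With the microglial marker Csf1r, r was 0.930 for Gfap, 0.998 for Vim, 0.961 for Cd44 and 0.555 for Lcn2. With the astrocyte marker Aqp4 these values were 0.937, 0.860, 0.775 and 0.812. With the astrocyte marker Slc1a3 they were 0.020, -0.164, -0.291 and -0.113.

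Other genes of the reactive state were followed in lists that, like the members, were chosen with earlier results of these data known. The genes named from each list are mostly those with its smallest unadjusted p on average, so they do not stand for the whole list. Over all genes tested, 47.7% were above 0 in shAdnp and 46.4% in shPogz. DESeq2 called 2.39% of all genes higher in shAdnp, 0.574% in shPogz and 4% on average. Of 3 further genes raised in most forms of astrocyte reactivity, 3 of 3 were above 0 in both sets, and 0 passed the adjusted edgeR test. At an unadjusted p under 0.05 on average there were 3, all higher, beside 8.84% of all genes. DESeq2 called Aspg in shAdnp and Cxcl10 on average. Cxcl10, a chemokine that interferon induces in many cells, was at 11.7 and 31.2 CPM in shAdnp, against 0.850 and 10.3 CPM in the controls, and at 37.0 and 141 CPM in shPogz, against 7.85 and 8.88 CPM in its controls. Its average effect was 2.68 (SE 0.92). Aspg, an asparaginase gene, averaged 0.56 (SE 0.18), with 0.88 (SE 0.22) in shAdnp and 0.24 (SE 0.22) in shPogz. The small heat shock protein gene Hspb1 averaged 0.75 (SE 0.29), with 0.42 (SE 0.39) in shAdnp and 1.11 (SE 0.40) in shPogz.

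Genes often assigned to the A1 type of reactive astrocyte, after lipopolysaccharide, numbered 11, of which 10 were above 0 in shAdnp (median 1.16) and 10 in shPogz (median 0.89). Ggta1, a galactosyltransferase gene, was at 21.5 and 14.0 CPM in shAdnp, against 6.03 and 9.15 CPM in the controls, and at 18.6 and 25.8 CPM in shPogz, against 14.1 and 15.7 CPM in its controls. The proteoglycan gene Srgn averaged 0.95 (SE 0.23). The class I histocompatibility genes H2-T23 (1.39, SE 0.41) and H2-D1 (1.32, SE 0.46) belong to a family of similar copies, and their separate values are uncertain. Genes assigned to the A2 type, after ischaemia, numbered 12 with 11 tested (Slc10a6 was under the filter): 11 were above 0 in shAdnp (median 1.27) and 9 in shPogz (median 0.42). The transglutaminase gene Tgm1 was at 4.95 and 1.91 CPM in shAdnp, against 0.196 and 0.525 CPM in the controls, and at 2.27 and 2.72 CPM in shPogz, against 0.849 and 2.46 CPM in its controls. Emp1 averaged 1.31 (SE 0.36), Cd109, a membrane protein gene, 1.25 (SE 0.39), and Ptx3, a secreted pentraxin gene, 2.09 (SE 0.46), all on the log2 scale. Ptx3 was counted on few reads, with 4 and 6 in the Adnp-set controls and 8 and 54 in the Pogz-set controls. No gene of either list passed the adjusted edgeR test in shAdnp, in shPogz or on average. At an unadjusted p under 0.05 on average there were 9 of 11 of the A1 type and 7 of 11 of the A2 type. All were higher, beside 8.84% of all genes. On average DESeq2 called 3 of the A1 type (Ggta1, Srgn and H2-T23) and 4 of the A2 type (Ptx3, Emp1, Cd109 and Tgm1), and limma-voom called 0. In shAdnp DESeq2 called 1 of the A1 type (Ggta1) and 4 of the A2 type (Cd109, Cd14, Emp1 and Tgm1). In shPogz DESeq2 called 0 of the A1 type and 1 of the A2 type (B3gnt5).

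Cytokines and complement genes known to induce the reactive state numbered 12; 11 were above 0 in shAdnp (median 1.57) and 12 in shPogz (median 0.97). Il1a, which encodes interleukin 1 alpha, was at 4.85 and 3.47 CPM in shAdnp, against 1.06 and 1.10 CPM in the controls, and at 2.22 and 4.51 CPM in shPogz, against 1.49 and 2.03 CPM in its controls. Tnf, which encodes tumour necrosis factor, was at 1.53 and 2.39 CPM in shAdnp, against 0.131 and 0.446 CPM in the controls, and at 2.97 and 8.22 CPM in shPogz, against 0.566 and 1.85 CPM in its controls. The Tnf control levels rest on 8 and 28 reads in the Adnp set and 16 and 130 in the Pogz set. C1qc, a chain of the complement component C1q, averaged 1.41 (SE 0.37), and Il1b, which encodes interleukin 1 beta, 1.20 (SE 0.35). Of 11 genes for gp130, its partner receptors and STAT3 signalling, 9 were above 0 in each set, but the medians were small (0.14 in both). Socs3, the feedback inhibitor that STAT3 induces, was at 10.8 and 9.85 CPM in shAdnp, against 3.09 and 4.65 CPM in the controls, and at 9.26 and 22.2 CPM in shPogz, against 5.87 and 8.07 CPM in its controls. Its average effect was 1.29 (SE 0.27), that of Stat3 itself 0.69 (SE 0.18), of the interleukin 6 receptor gene Il6ra 0.64 (SE 0.20) and of the kinase gene Tyk2 0.28 (SE 0.10). No gene of these 2 lists passed the adjusted edgeR test in shAdnp, in shPogz or on average. On average 7 of 12 inducers and 5 of 11 pathway genes had an unadjusted p under 0.05. All were higher, beside 8.84% of all genes. On average DESeq2 called 6 inducers (C1qa, C1qb, C1qc, Il1a, Il1b and Tnf) and 3 pathway genes (Il6ra, Socs3 and Stat3), and limma-voom called 0. In shAdnp DESeq2 called 5 inducers (C1qa, C1qb, C1qc, Il1a and Tnf) and 2 pathway genes (Il6ra and Socs3). In shPogz DESeq2 called 0 inducers and 1 pathway gene (Stat3).

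Binding partners, substrates and relatives of the 10 proteins were listed as well (24 genes, 21 tested). Of these, 19 were above 0 in shAdnp (median 0.32) and 9 in shPogz (median -0.04), with 0 passing the adjusted edgeR test. At an unadjusted p under 0.05 on average, 8 were higher, beside 8.84% of all genes. DESeq2 called 4 on average (Spp1, Mmp14, Lrp2 and Nes), and limma-voom called 0. In shAdnp DESeq2 called 3 (Mmp14, Mmp2 and Spp1), and in shPogz 1 (Spp1). Spp1, which encodes osteopontin, a ligand of CD44, was at 25.9 and 13.0 CPM in shAdnp, against 5.89 and 6.53 CPM in the controls (1.65, SE 0.36), and at 8.54 and 14.1 CPM in shPogz, against 4.24 and 5.32 CPM in its controls (1.23, SE 0.36). Lrp2, which encodes megalin, an endocytic receptor for lipocalin 2, averaged 1.66 (SE 0.35) at levels between 0.191 and 1.22 CPM. The membrane metalloproteinase gene Mmp14 averaged 0.82 (SE 0.16), and Nes, which encodes the filament protein nestin, 0.73 (SE 0.16).

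Markers of cell types were measured beside the reactive genes. Across all lists 3 genes stand in 2 lists (C1qa, Clcf1 and Sphk1). The 14 astrocyte markers summed to 6894 and 8142 CPM in shAdnp, against 8451 and 7603 CPM in its controls, and to 7190 and 5713 CPM in shPogz, against 7316 and 7471 CPM in its controls. Slc1a2 and Glul weighed most in these sums, at 4216 and 1856 CPM in Adnp-set GFP replicate 1. The median log2 fold change of the 14 markers was 0.02 in shAdnp, where 10 of 14 were above 0. In shPogz it was -0.15, and 13 of 14 were below 0. Slc1a2, the main glutamate transporter of astrocytes, averaged -0.27 (SE 0.13) and the growth factor receptor gene Fgfr3 -0.15 (SE 0.11), while the water channel gene Aqp4 differed by 0.56 (SE 0.14) in shAdnp and -0.08 (SE 0.13) in shPogz. Gfap is not among the 14. For every 100 reads of these markers there were 11.1 and 4.83 Gfap reads in shAdnp, against 1.11 and 2.51 in its controls, and 4.11 and 6.71 in shPogz, against 4.35 and 4.69 in its controls.

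In shAdnp, 10 of 10 microglial, 8 of 10 leukocyte and 8 of 8 fibroblast markers were above 0, and in shPogz 9 of 10, 9 of 10 and 5 of 8. The share of all genes above 0 was 47.7% in shAdnp and 46.4% in shPogz. The 10 microglial markers, of which none was at 0, summed to 1476 and 999 CPM in shAdnp, against 470 and 610 CPM in its controls, and to 931 and 1470 CPM in shPogz, against 811 and 848 CPM in its controls. Their median log2 fold changes were 1.13 in shAdnp and 0.41 in shPogz. The 10 leukocyte markers summed to 59.7 and 97.2 CPM in shAdnp, against 12.4 and 38.3 CPM in its controls, and to 107 and 241 CPM in shPogz, against 55.3 and 101 CPM in its controls. Their medians were 1.86 in shAdnp and 0.94 in shPogz. Several were near the floor in Adnp-set GFP replicate 1, where Cd3e and Cd3g had 0 reads, Cd8a 5 and Nkg7 8. S100a8 and S100a9, also on few reads, averaged 0.158 and 0.133 CPM in shAdnp, against 0.192 and 0.370 CPM in its controls. The 8 meningeal fibroblast markers summed to 206 and 211 CPM in shAdnp, against 102 and 110 CPM in its controls, and to 168 and 190 CPM in shPogz, against 106 and 168 CPM in its controls. Their medians were 1.01 in shAdnp and 0.54 in shPogz, where the lower shPogz sum barely exceeded the higher control sum. The part of these cells in the levels of Vim, Cd44, Timp1 and the other reactive genes was not tested.

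For the other marker lists, the medians in shAdnp and in shPogz were 0.34 and -0.17 for 6 mural markers, 0.10 and -0.11 for 6 endothelial markers, 0.19 and -0.07 for 5 choroid plexus markers, -0.04 and 0.45 for 5 oligodendrocyte markers, -0.08 and -0.16 for 6 neuronal markers and 0.18 and 0.62 for the 5 striatal markers in the tables. Ependymal markers (4 of 5 tested) had medians of 0.44 and 0.20, and of the red blood cell list 1 gene, Alas2, was tested (0.21 and -0.25), with Hba-a1 and Hba-a2 at 0 in every library. No marker of any cell type passed the adjusted edgeR test in shAdnp, in shPogz or on average. At an unadjusted p under 0.05 on average, 9 microglial, 4 leukocyte, 5 fibroblast and 2 striatal markers were higher, beside 8.84% of all genes. On average DESeq2 called 8 microglial, 1 leukocyte (Ptprc), 5 fibroblast and 1 striatal marker (Adora2a) higher, beside 4% of all genes. The same comparison in limma-voom called 0. In shAdnp DESeq2 called 8 microglial, 5 fibroblast and 1 astrocyte marker (Aqp4) higher, beside 2.39% of all genes. In shPogz DESeq2 called 0 microglial, 0 leukocyte and 0 fibroblast markers, beside 0.574% of all genes called higher.

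**Figure D4:**
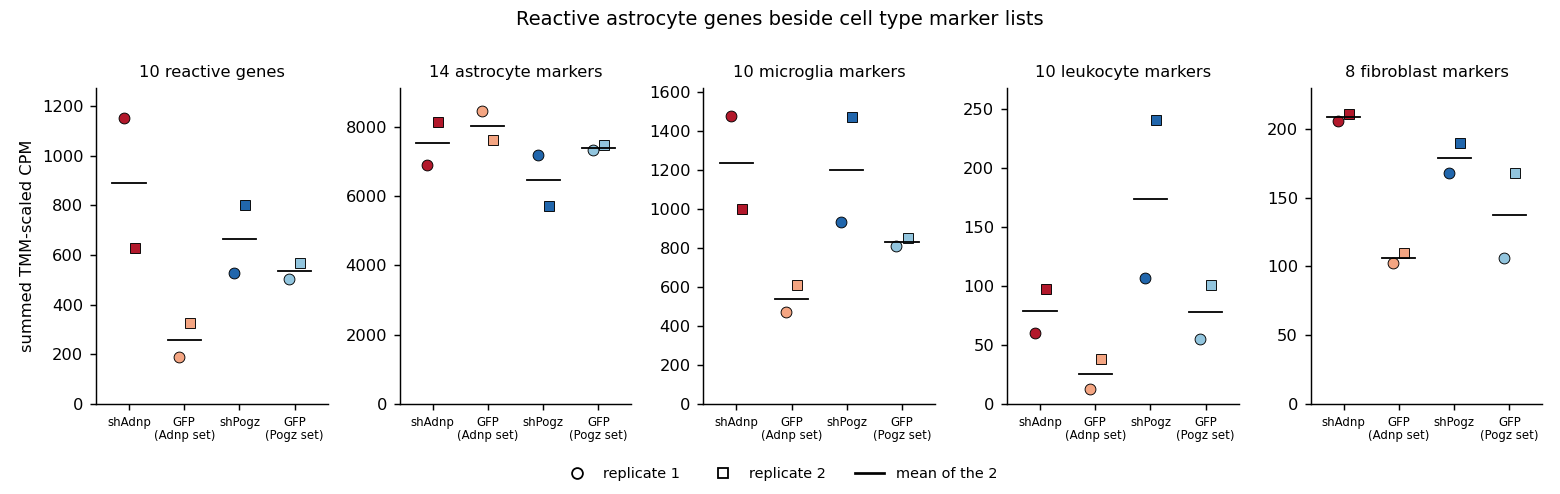
Summed TMM-scaled CPM of the 10 reactive genes and of 4 cell type marker lists in each library (linear axes from 0), with the mean of each pair as a line. The reactive genes and the microglial markers are lowest in the Adnp-set GFP controls and spread in shAdnp and shPogz, while the astrocyte markers lie between 5713 and 8451 CPM in all libraries.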

How the data were processed

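The authors deposited raw read counts per gene for each library, whole numbers with no normalization. Per the labels' protocols the RNA was ribosome-depleted and the libraries were stranded. The submitters' processing notes name STAR, featureCounts, DESeq2 and the build mm10, with no versions, while the labels' protocols name Cutadapt and TopHat2. Per the file headers the second shPogz library carries the number 3; it is called replicate 2 here, after its title. The strand setting of the counting is not given in the sources used here. Rows that name no gene (2 blank rows per library) and 25 rows with date-like names, which held 0.306% to 0.337% of the counts, were left out of the tests.

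Genes were kept with edgeR's filterByExpr by group (minimum count 10), scaled by TMM and tested with edgeR 4.0.16 in R 4.3.3 (quasi-likelihood F test, Benjamini-Hochberg adjustment over all 17415 genes at 0.05). All 8 libraries entered one model with a mean per group, and the average hairpin effect came from a model with set and hairpin. DESeq2 1.42.0 and limma-voom (limma 3.58.1), other scalings and filters, a replicate block and each library left out were alternatives. The edgeR fit was tested on simulated data. Replicate numbers were not taken as pairs, and the labels do not say that a number marks a shared animal or batch. The correlation of same-numbered libraries was over 0.1 in 3 of 6 pairs of groups, which does not settle the question. The choice matters: with a replicate block 144 genes were called in shAdnp, 26 in shPogz and 455 on average, against 0 in each without it. Libraries of a pair differed by more than sampling noise (29.2 to 286 chi-square units for each degree of freedom). The highest value was that of the shAdnp pair, and Rn45s was among the genes counted. Its share was 7.62% in shAdnp replicate 1 and 0.740% in replicate 2, so that value is not a measure of general spread. The labels call the libraries of a pair biological duplicates. The p-values rest on the spread within pairs, estimated over all 8 libraries together and shared in part between genes, not on each pair alone. For the average hairpin effect the residual spread also holds the gap between the responses of the 2 sets. Gfap, whose responses lay far apart, had an SE of 0.55 on average, against 0.46 in shAdnp and 0.44 in shPogz. Exon lengths came from GENCODE M21.

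The members and lists were chosen with earlier results of these data known. All 10 members were named, with up to 4 genes of each list (smallest unadjusted p on average) and the 5 closest profiles; other genes DESeq2 called were named after their values were seen.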

Additional observations from a re-analysis of the deposited data

How the results depend on the processing

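With DESeq2 the number of genes called was 420 in shAdnp (416 higher, 4 lower), 100 in shPogz, 711 on average (697 higher, 14 lower), 2 for the difference between the responses and 73 between the control pairs (66 higher, 7 lower); 4 of the 10 reactive genes were among those in shAdnp and 6 among those on average. Replicate numbers are shared between the groups, but the labels do not say that a number marks a shared animal or batch. The deviations of same-numbered libraries correlated at -0.0085 between shAdnp and its controls and 0.047 between shPogz and its controls, and at -0.080 to 0.313 over all 6 pairs of groups, of which 3 were over 0.1. With a replicate block 144 genes were called in shAdnp, 26 in shPogz, 455 on average (1 reactive gene, Cd44) and 18 between the control pairs, and 2 reactive genes differed between the responses at an unadjusted p under 0.05, as they did with limma-voom. Without the low-count filter 6 genes were called between the control pairs, and 6 at an adjusted p of 0.1. The cause of these shifts was not tested.

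Leaving out 1 library (its lone partner is then assumed to vary like the other groups), the genes called ranged over 0 to 8 in shAdnp, 0 to 100 in shPogz, 0 to 502 on average, 0 to 4 for the difference and 0 to 2 between the controls. Reactive genes called ranged over 0 to 1 in shPogz and 0 to 4 on average. Reactive genes at an unadjusted p under 0.05 ranged over 4 to 7 in shAdnp, 0 to 5 in shPogz, 5 to 8 on average, 0 to 4 for the difference and 1 to 4 between the controls. Of the fold changes, 9 changed sign. In shPogz, Gfap ranged from -0.16 to 0.20, Lcn2 from -1.17 to 0.30, S1pr3 from -0.083 to 0.32 and Cp from -0.033 to 0.75. For the difference, Serpina3n ranged from -1.35 to 0.32, Osmr from -0.95 to 0.13, Steap4 from -0.36 to 0.074 and Timp1 from -0.73 to 0.059. On average, Lcn2 ranged from -0.10 to 0.66. No other fold change of the 10 genes changed sign under the alternatives run. Depth limits Lcn2 (18 to 57 reads), Steap4 (28 to 97 reads) and Timp1 (48 to 186 reads).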
